A study of Mus musculus with 8 samples.

Results

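Transcript levels of 47 cell cycle and DNA replication genes were compared in mouse embryonic stem cells with and without the zinc finger protein Rex-1, in the presence and absence of leukemia inhibitory factor (LIF). The members were a list of 49 genes: cyclins and their kinases, inhibitors of those kinases, the retinoblastoma (RB) and E2F family, p53 and Mdm2, replication proteins and mitotic proteins. Each gene was read from probe sets that carry its symbol alone, and the probe set of highest mean log2 signal over the 8 arrays stood for the gene. On that rule 47 of the 49 were measured, out of 18193 genes with such a probe set, and Trp53 and Ccnb1 were not analysed here. The 47 genes had 106 such probe sets. They comprised 9 G1 cyclins, kinases and the phosphatase Cdc25a, 4 kinase inhibitors, 6 RB and E2F genes, Mdm2, 14 genes of replication licensing and synthesis and 13 mitotic genes.

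The arrays were single-colour Affymetrix arrays, 8 in all and 2 per group. The groups were J1 wild-type cells, an embryonic stem cell line, with LIF and without LIF, and Rex-1-/- cells with LIF and without LIF; all grew as a monolayer on gelatin, and J1 is also the strain and source given for the knockout. The labels say nothing of whether the knockout is 1 clone or how many clones were used. A text shared by all 8 arrays gives 12 hours without LIF. For knockout cells without LIF, the title and treatment text were followed, although their growth text lists LIF in the medium. The 2 arrays of a group, called here first and second, are biological replicates in the series text, but their titles differ only by a letter r of unstated meaning, so every p-value rests on the spread within these pairs, which may be technical.

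Zfp42, the gene that encodes Rex-1, read 14.03 to 14.51 on the log2 scale on all 8 arrays, those labelled knockout included, with an averaged knockout-minus-J1 difference of -0.21. Where its probe set lies relative to the deletion is not stated by the labels, so it does not check the labels, and these cells are called knockout-labelled. Markers of pluripotent cells, 8 of 8 measured, averaged 13.08 to 13.48 per array. The means of 10 fibroblast or feeder markers were 6.19 to 7.96, those of 8 extraembryonic endoderm markers 6.20 to 7.15 and those of 8 trophoblast markers 5.97 to 6.998. Postn, Lum, Dcn, Afp, Foxa2, Cdx2, Elf5, Gata3 and Krt7 among them had a mean under 6. Others were well above that, with means of 10.61 for Acta2, 10.36 for Tfap2c, 8.89 for Lama1 and 8.59 for Tagln. On the first J1 arrays with and without LIF, Tagln read 12.24 and 12.12, against 5.09 to 9.45 on the other arrays. One library stood apart, the second knockout-labelled array with LIF, which had a median signal of 143.5 against 114.2 to 127.9 on the others.

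Cells enter S phase when D-type and E-type cyclins, with their kinases, phosphorylate RB proteins and release E2F factors, which switch on the genes of DNA replication. Inhibitors of the Cip/Kip and INK4 families restrain these kinases, and p53 induces the inhibitor Cdkn1a and its own antagonist Mdm2. Mouse embryonic stem cells are known for a short G1 phase with RB held largely phosphorylated, and LIF keeps such cells undifferentiated through STAT3. Mitotic genes are expressed late in the cycle, through NF-Y bound to CCAAT boxes and complexes bound to the cell cycle genes homology region (CHR).

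Promoters of the replication and mitotic genes differ in the elements they hold, a description that uses no array value. The stretches below, read from the RefSeq promoter table (GRCm38.p6, 5′ to 3′ on the gene's own strand, all upstream of the annotated start), are shown because they carry the elements of each class: Mcm5 and Mcm6 are subunits of the replicative helicase, Orc1 of the origin recognition complex, Rbl1 is the RB-related protein p107, Cdk1 the mitotic kinase, Cdc20 an activator of the anaphase-promoting complex and Mki67 the proliferation antigen Ki-67. Capitals mark matches to the E2F element (TTTCCCGC, TTTCGCGC, TTTGCCGC or TTTGGCGC), the CCAAT box (CCAAT) and the CHR element (TTTGAA or TTCGAA), on either strand; matches that overlap form 1 run of capitals.
Mcm5 (chr8:75109346-75109501, plus strand): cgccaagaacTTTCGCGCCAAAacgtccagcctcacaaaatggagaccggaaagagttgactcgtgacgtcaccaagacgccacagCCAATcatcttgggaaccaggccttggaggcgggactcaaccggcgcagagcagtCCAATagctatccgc
Mcm6 (chr1:128359706-128359825, minus strand): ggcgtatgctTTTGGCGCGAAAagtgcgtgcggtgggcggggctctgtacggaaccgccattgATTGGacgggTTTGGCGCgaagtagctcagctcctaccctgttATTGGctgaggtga
Orc1 (chr4:108579324-108579444, plus strand): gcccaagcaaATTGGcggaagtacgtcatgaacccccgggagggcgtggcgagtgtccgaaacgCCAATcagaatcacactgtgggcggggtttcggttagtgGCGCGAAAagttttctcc
Rbl1 (chr2:157204535-157204562, minus strand): agaaggcgatTTTCGCGCgctttgtcgc
Cdk1 (chr10:69352913-69353130, minus strand): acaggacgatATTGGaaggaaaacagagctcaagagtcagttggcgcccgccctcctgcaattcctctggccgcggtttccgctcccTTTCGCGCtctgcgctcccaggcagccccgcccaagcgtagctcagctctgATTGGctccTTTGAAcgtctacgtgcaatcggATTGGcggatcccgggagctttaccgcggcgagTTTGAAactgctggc
Cdc20 (chr4:118437344-118437406, minus strand): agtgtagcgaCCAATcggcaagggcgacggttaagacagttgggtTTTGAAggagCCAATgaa
Mki67 (chr7:135716462-135716577, minus strand): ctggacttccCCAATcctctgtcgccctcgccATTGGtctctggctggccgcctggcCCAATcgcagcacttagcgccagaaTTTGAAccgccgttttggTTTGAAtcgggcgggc

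Mcm5 and Mcm6 each hold a run in which an E2F element on 1 strand overlaps an E2F element on the other, with CCAAT boxes nearer the start. In Orc1 the boxes come first and the E2F element lies nearest the start. The Rbl1 stretch holds an E2F element alone. Cdc20 and Mki67 hold CCAAT boxes and CHR elements with no E2F element in the stretch, and Cdk1 holds all 3 kinds.

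Promoter windows, 250 bases before to 50 after the start, were found for 39 of the 49 members, 44 windows in all, since 5 genes had several. Of the 13 windows of replication genes, 7 held an E2F element (53.8%) and 11 a CCAAT box (84.6%), against 2.26% and 37.4% of all 32851 windows in the table. Of the 11 windows of mitotic genes, 9 held a CHR element (81.8%) against 19.2% of all windows, 10 held a CCAAT box and 1, that of Cdk1, an E2F element. With only the bases before the start, 5 of the 11 mitotic windows kept a CHR element (45.5%, against 17.1% of all windows). The G1 windows held an E2F element in 2 of 7, and the inhibitor windows in 0 of 6. Among genes not in the list, 10 of 43 windows of other replication genes held an E2F element and 26 of 37 windows of other mitotic genes a CHR element. Within the members 1 pair of matches to different motifs overlapped. These matches are letters in a window, not measured binding sites.

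**Figure D1:**
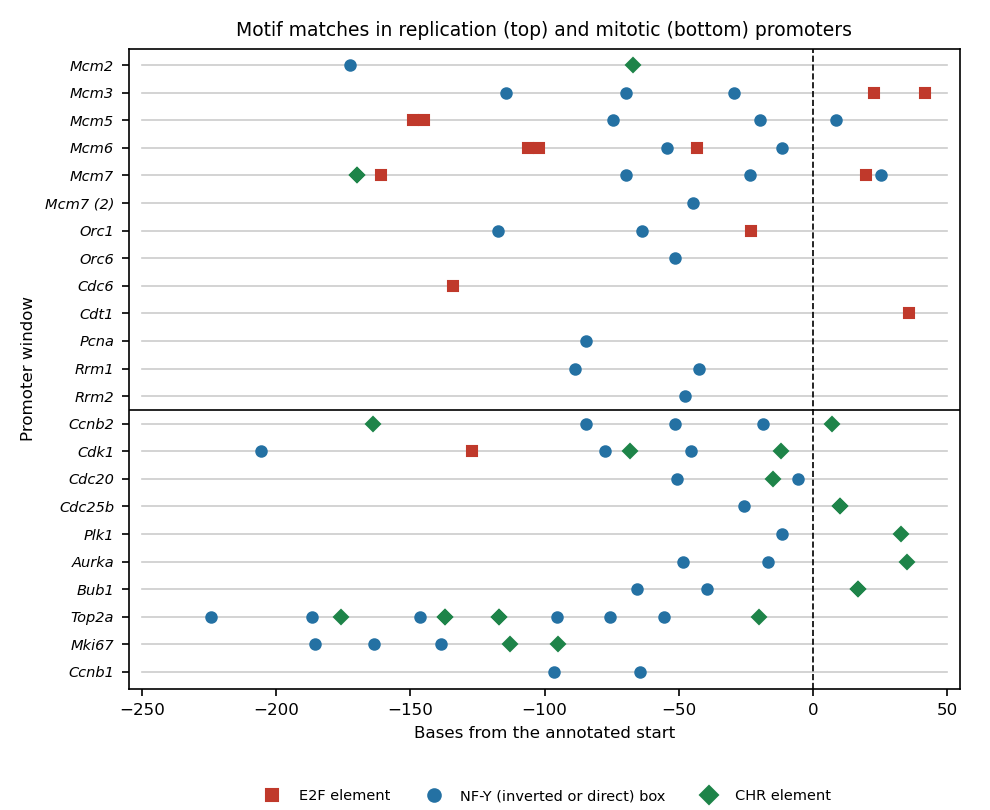
Positions of E2F elements (squares), NF-Y boxes (circles) and CHR elements (diamonds) in promoter windows of replication genes (above the line) and mitotic genes (below), in bases from the annotated start (dashed line); a second window of a gene is marked (2), and the window of Mad2l1, which held no match, is not drawn. Squares lie in 7 of 13 replication windows and 1 of 11 mitotic windows, and diamonds in 2 and 9.

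Removal of LIF was compared with its presence to ask which cell cycle transcripts depend on the cytokine. Averaged over both lines, the members lay close to no difference: 20 were higher and 27 lower without LIF, with a median of -0.016 on the log2 scale. On the probe set used for each gene, none of the 47 differed by more than 0.5 log2 units, and the 95% interval lay within 1 log2 unit on either side of 0, a 2-fold change, for 45 of them. The values ran from -0.33 for Cdkn1a to 0.37 for Cdkn1b. With the mean of all probe sets of a gene, 6 members were past 0.5, none of them called by limma: Cdk2 at -1.21, Rb1 at 0.97, Cdkn1a at -0.78, Ccnd2 at 0.57, Cdk6 at 0.56 and Ccnd3 at -0.55.

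In limma, 0 of 47 members passed an adjusted p of 0.05 for LIF removal in J1 cells, in knockout-labelled cells or averaged, where 0% of the 43439 probe sets tested passed. At an unadjusted p under 0.05 the members numbered 0 in each, against 3.61% of all probe sets in J1 cells, 4.07% in knockout-labelled cells and 4.02% averaged. The 4 arrays without LIF lay all below the 4 with LIF for 0 of 47 members and all above for 0, against 1.33% and 1.02% of all probe sets. Among the brighter probe sets, those averaging 8 or more on the log2 scale, where 45 of the members lie, these shares were 1.05% and 1.25%, and the members again numbered 0. Of these 14892 brighter probe sets, 18 were higher and 45 lower in J1 cells at an unadjusted p under 0.05. In knockout-labelled cells these counts were 41 and 36, and averaged 43 and 68. The count of 0 members is thus near the background of probe sets as bright as the members. The median size of a member's difference, 0.10, was near the 0.096 of those brighter probe sets and below the 0.21 of all probe sets.

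The knockout-labelled cells were compared with J1 cells to ask which of these transcripts depend on Rex-1. On the probe set used for each gene, Ccnd2, the gene of cyclin D2, was the 1 member that differed by more than 0.5 log2 units averaged over LIF. It was lower in the knockout-labelled cells. With the mean of all probe sets of a gene, other members were past 0.5 too, none of them called by limma. Among them were Aurka at -0.76, Cdk6 at -0.51 and Cdkn1a, whose 2 probe sets gave -0.49 and -0.82. On the probe sets used, the other D-type and E-type cyclins, the replication genes and the mitotic genes lay between -0.20 and 0.20. Over all members 22 were higher and 25 lower, with a median of -0.0046, and 43 had a 95% interval within 1 log2 unit of 0.

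No member passed the adjusted p of 0.05 with LIF, without LIF or averaged (0% of all probe sets in each). By unadjusted p under 0.05, 1 of 47 members, Ccnd2, was counted with LIF (5.02% of all probe sets), without LIF (3.68%) and averaged (5.27%). Of the 14892 brighter probe sets, 67 were counted as higher and 118 as lower with LIF. Without LIF these counts were 56 and 47, and averaged 159 and 175. The share of the members was thus below that of all probe sets. It was not below that of the brighter ones with or without LIF, and was near that of the brighter ones averaged. This share rests on 1 member. Ccnd2 and E2f3 had all 4 knockout-labelled arrays below all 4 J1 arrays, 2 of 47 against 1.74% of all probe sets, or 2 of 45 against 2.7% of the brighter ones. In the other direction the members numbered 0, against 2.1% and 2.32%. The contrasts of genotype and of LIF use the same 8 arrays.

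**Figure D2:**
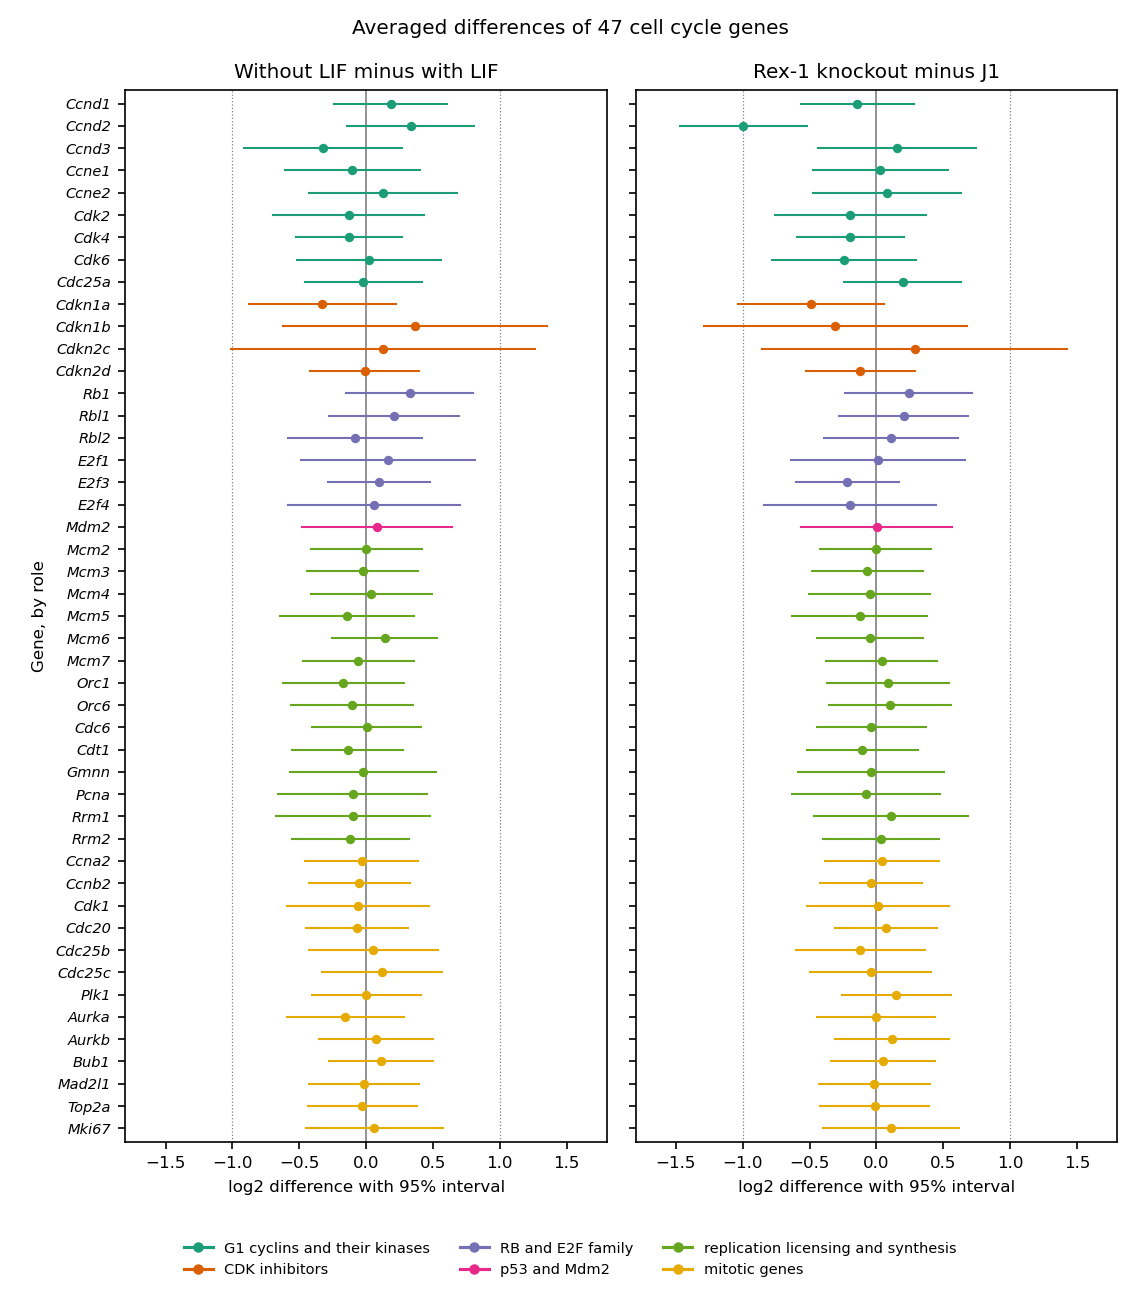
Averaged log2 differences (points) with 95% intervals (lines) for the 47 genes, coloured by role: without minus with LIF at left, knockout-labelled minus J1 at right; dotted lines mark 1 log2 unit on either side of 0. Intervals cross 0 for all 47 genes at left and for all but Ccnd2 at right, and those of the 14 replication and 13 mitotic genes lie within the dotted lines in both panels.

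Among the D-type cyclins, the partners of Cdk4 and Cdk6, Ccnd2 stood apart. In J1 cells Ccnd2 read 9.92 and 10.27 with LIF and 10.09 and 10.54 without it, and in the knockout-labelled cells 8.92 and 9.06 with LIF and 9.50 and 9.37 without it. Every knockout-labelled array was below every J1 array. The averaged difference was -0.997 (SE 0.19, 95% interval -1.47 to -0.52, n = 4 arrays a side), 1.996-fold, with an adjusted p of 0.708 in limma. It was -1.11 (SE 0.27) with LIF and -0.88 (SE 0.27) without, -0.80 between the first arrays and -1.19 between the second. Over 17 alternative settings the difference stayed between -1.11 and -0.89, and the adjusted p between 0.0515 and 0.9999.

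All 7 probe sets of Ccnd2 were lower in the knockout-labelled arrays, by -1.89 to -0.75, and 4 of the 7 showed no overlap between the genotypes. All 7 were also higher on average without LIF than with it; for the probe set used, the averaged LIF difference was 0.33 (SE 0.19). Probe sets of 1 gene read the same RNA samples, so they are not replicates of the comparison. The 10 fibroblast or feeder markers averaged 6.19 to 7.96 on the J1 arrays and 6.35 to 7.16 on the knockout-labelled arrays, and their part in the Ccnd2 values was not tested. In RNA from whole cultures, fewer cells that express a gene and less of its RNA per cell cannot be told apart.

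**Figure D3:**
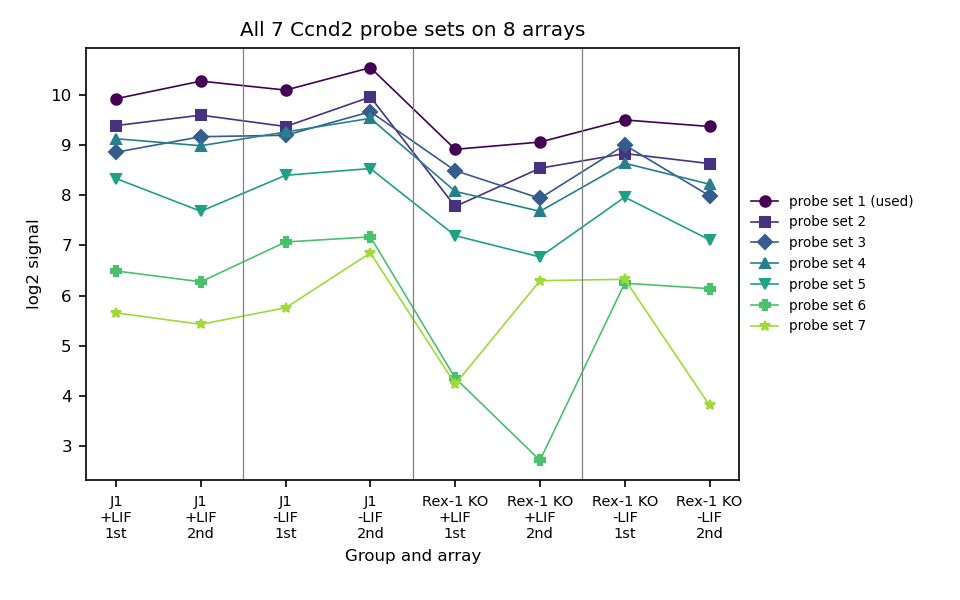
log2 signal of the 7 probe sets of Ccnd2 on each of the 8 arrays, in order of their mean, with lines joining the values of 1 probe set; the first is the one used for the gene. The 4 J1 arrays at left lie above the 4 knockout-labelled arrays at right in 4 of the 7 probe sets.

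Ccnd1 and Ccnd3, which encode the other D-type cyclins, overlapped between the genotypes. Ccnd1 read 11.07 and 10.91 in J1 cells with LIF, 11.16 and 11.12 in J1 cells without LIF, 10.99 and 10.64 in knockout-labelled cells with LIF and 11.12 and 10.95 in those without LIF. The averaged difference of Ccnd1 between genotypes was -0.14 (SE 0.17). The values of Ccnd3 were 11.83 and 11.39 in J1 cells with LIF and 11.58 and 11.04 without, against 11.83 and 11.74 in knockout-labelled cells with LIF and 11.72 and 11.16 without. Its second array was below its first in all 4 groups, by -0.56 to -0.08, a spread as wide as its averaged LIF difference of -0.32 (SE 0.24). Its genotype difference of 0.15 (SE 0.24) turned to -0.42 with the mean of its probe sets.

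The E-type cyclin Ccne1 activates Cdk2 at the start of S phase. For Ccne1 the J1 arrays gave 12.03 and 11.70 with LIF and 11.92 and 11.46 without LIF, and the knockout-labelled arrays 11.63 and 12.01 and 11.85 and 11.74 in the same order. These groups overlapped, with averaged differences of -0.10 (SE 0.20) for LIF and 0.03 (SE 0.20) for genotype. In J1 cells Cdk6 read 8.88 and 8.80 with LIF and 8.81 and 9.30 without it, and in the knockout-labelled cells 8.79 and 8.79 with LIF and 8.33 and 8.91 without it. The kinase Cdk6 was lowest on the first knockout-labelled array without LIF and highest on the second J1 array without LIF. Its genotype difference was -0.24 (SE 0.22), with overlap. All 3 probe sets of Cdk6 were lower in the knockout-labelled cells. The second, at a mean of 8.63, gave -0.63 (SE 0.24), also with overlap, and the mean of its probe sets gave -0.51. Cdc25a, the phosphatase that activates Cdk2, had 10.71 and 10.996 in J1 cells with LIF, 10.98 and 10.77 without, and 10.94, 11.25, 10.97 and 11.09 in the knockout-labelled cells. The genotype difference of Cdc25a was 0.20 (SE 0.18) with overlap. Its second probe set, at a mean of 10.52, gave 0.29 (SE 0.19) with no overlap. Its dimmest probe set, at a mean of 4.87, gave -1.71 (SE 0.19) in the opposite direction, also with no overlap. Ccne2, Cdk2 and Cdk4 had genotype differences of 0.08, -0.20 and -0.20 and LIF differences of 0.13, -0.13 and -0.13.

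The Cip/Kip inhibitors Cdkn1a (p21) and Cdkn1b (p27) bind cyclin-kinase complexes. In J1 cells Cdkn1a read 9.66 and 9.55 with LIF and 9.61 and 8.89 without it, and in the knockout-labelled cells 8.93 and 9.24 with LIF and 8.77 and 8.81 without it. The second J1 array without LIF lay among the knockout-labelled values, so the genotypes overlapped. The averaged difference was -0.49 (SE 0.22, 95% interval -1.03 to 0.06, adjusted p = 0.978 in limma), but -0.78 between the first arrays and -0.19 between the second. Its other probe set differed by -0.82. On the first J1 arrays, where the fibroblast or feeder markers were highest at 7.77 and 7.96, Cdkn1a was also at its highest. On the second J1 array with LIF these markers averaged 6.67, and Cdkn1a read 9.55. The part of such cells was not tested.

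Cdkn1b read 9.78 and 9.15 in J1 cells with LIF, 9.81 and 9.60 in J1 cells without LIF, 9.65 and 8.41 in knockout-labelled cells with LIF and 10.05 and 8.998 in those without LIF. In all 4 groups Cdkn1b was lower on the second array, by -0.21 to -1.24, and lowest on the second knockout-labelled array with LIF, the array that stood apart. Its genotype difference of -0.31 (SE 0.40) was 0.0020 without that array, and its LIF difference of 0.37 (SE 0.40) was 0.055 without it.

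The INK4 inhibitors act on Cdk4 and Cdk6. The values of Cdkn2c were 5.15 and 6.54 in J1 cells with LIF and 5.43 and 6.43 without, against 6.64 and 5.54 in knockout-labelled cells with LIF and 6.45 and 6.05 without. At this low signal the difference between genotypes was 1.25 between first arrays and -0.69 between second arrays, so its averaged value of 0.28 (SE 0.46) has no settled direction. Cdkn2d was near level, at -0.01 for LIF and -0.12 for genotype.

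**Figure D4:**
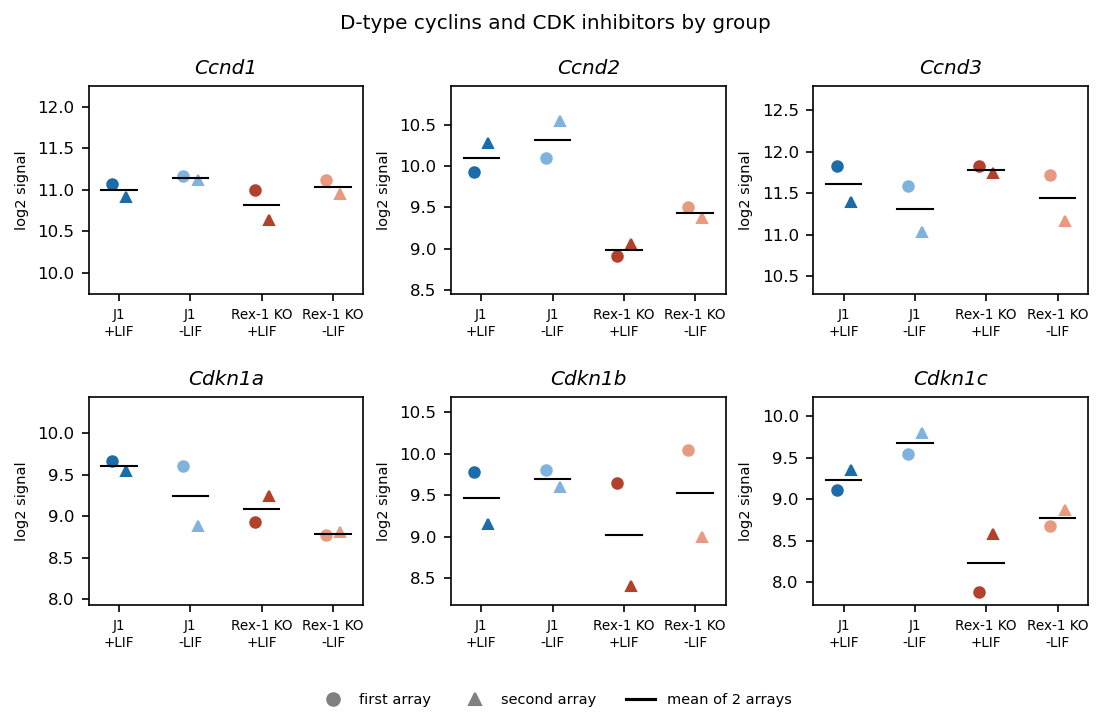
log2 signal of the D-type cyclins and of the Cip/Kip inhibitors, with Cdkn1c from the list of other G1/S genes, in the 4 groups (circles first arrays, triangles second arrays, black bars the mean of 2 arrays); every panel spans 2.5 log2 units. Ccnd2 and Cdkn1c show no overlap between J1 and knockout-labelled arrays, whereas the triangle of Cdkn1b is below the circle in every group.

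The RB proteins hold E2F factors in check, and E2F1 and E2F3 activate S-phase genes. For Rb1 the J1 arrays gave 8.43 and 8.48 with LIF and 8.42 and 8.76 without LIF, and the knockout-labelled arrays 8.56 and 8.46 and 9.26 and 8.79 in the same order. Rb1 was highest on the first knockout-labelled array without LIF, and its differences were 0.32 (SE 0.19) for LIF and 0.24 (SE 0.19) for genotype; with its dim second probe set averaged in, the latter turned to -0.22. In J1 cells Rbl1 read 8.63 and 8.18 with LIF and 8.50 and 8.74 without it, and in the knockout-labelled cells 8.44 and 8.79 with LIF and 8.87 and 8.76 without it. Both of its differences were 0.21 (SE 0.19), with overlap between groups. Of the 6 genes, 5 were higher without LIF, with a median of 0.13 and none called.

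E2f1 read 8.66 and 9.30 in J1 cells with LIF, 8.79 and 9.33 in J1 cells without LIF, 8.68 and 9.15 in knockout-labelled cells with LIF and 8.96 and 9.36 in those without LIF. The second array was higher in every group, by 0.40 to 0.65, more than its differences of 0.16 for LIF and 0.015 for genotype. The values of E2f3 were 9.60 and 9.53 in J1 cells with LIF and 9.55 and 9.72 without, against 9.39 and 9.25 in knockout-labelled cells with LIF and 9.50 and 9.39 without. The lowest J1 value was just above the highest knockout-labelled value, for a difference of -0.22 (SE 0.15). The other probe set of E2f3 gave 0.47, the opposite direction, and the mean of both gave 0.13. Rbl2 and E2f4 differed between genotypes by 0.11 and -0.20.

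Mdm2, the ubiquitin ligase that degrades p53 and is itself a p53 target, was level between groups and not between arrays. For Mdm2 the J1 arrays gave 10.99 and 11.32 with LIF and 11.22 and 11.30 without LIF, and the knockout-labelled arrays 10.98 and 11.38 and 10.92 and 11.56 in the same order. The second array was higher in all 4 groups, whereas the averaged differences were 0.08 (SE 0.23) for LIF and 0.00060 (SE 0.23) for genotype. The dimmest of its 3 probe sets, at a mean of 5.82, gave 1.01 for genotype.

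The replication genes were level between the groups. Their LIF differences ran from -0.17 for Orc1 to 0.14 for Mcm6, with 3 of 14 higher and a median of -0.08. Their genotype differences ran from -0.13 for Mcm5 to 0.11 for Rrm1, with 5 of 14 higher and a median of -0.04. In both comparisons all 14 intervals lay within 1 log2 unit of 0, so a 2-fold change lies outside the interval of each. With the mean of all probe sets, Mcm6 moved to -0.39 for genotype and -0.24 for LIF.

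Helicase subunits showed this array by array. In J1 cells Mcm2 read 12.52 and 12.80 with LIF and 12.67 and 12.75 without it, and in the knockout-labelled cells 12.57 and 12.84 with LIF and 12.69 and 12.62 without it. Mcm2 lay between 12.52 and 12.84 throughout, with every group overlapping the others. Mcm5 read 13.73 and 14.27 in J1 cells with LIF, 13.80 and 14.10 in J1 cells without LIF, 13.89 and 14.05 in knockout-labelled cells with LIF and 13.63 and 13.84 in those without LIF. The values of Mcm6 were 12.49 and 12.80 in J1 cells with LIF and 12.77 and 12.77 without, against 12.54 and 12.63 in knockout-labelled cells with LIF and 12.74 and 12.73 without. Mcm5 was highest on the second J1 array with LIF, and Mcm6 lowest on the first array of the same group. Mcm3, Mcm4 and Mcm7 had genotype differences of -0.07, -0.05 and 0.04.

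Transcripts of origin binding and licensing genes were level as well, within the same bound. For Orc1 the J1 arrays gave 10.75 and 11.15 with LIF and 10.66 and 10.97 without LIF, and the knockout-labelled arrays 11.03 and 11.11 and 10.79 and 10.95 in the same order. In J1 cells Cdt1 read 13.36 and 13.70 with LIF and 13.40 and 13.59 without it, and in the knockout-labelled cells 13.46 and 13.58 with LIF and 13.29 and 13.28 without it. Orc1, the ATPase subunit of the origin complex, and Cdt1, the loader of the helicase, were each highest on a second array, with genotype differences of 0.09 (SE 0.18) and -0.11 (SE 0.17). Orc6, Cdc6 and Gmnn, the inhibitor of Cdt1, gave 0.10, -0.04 and -0.04.

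Rrm1 encodes the large subunit of ribonucleotide reductase, which makes deoxynucleotides. Rrm1 read 12.11 and 12.61 in J1 cells with LIF, 12.15 and 12.45 in J1 cells without LIF, 12.28 and 12.74 in knockout-labelled cells with LIF and 12.14 and 12.60 in those without LIF. In each group the second array was higher, by 0.29 to 0.50, and the groups overlapped, with differences of -0.10 (SE 0.23) for LIF and 0.11 (SE 0.23) for genotype. Rrm2 and Pcna, the sliding clamp of the polymerases, gave genotype differences of 0.04 and -0.08.

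The mitotic genes were level too. Their LIF differences ran from -0.15 for Aurka to 0.12 for Cdc25c, with 5 of 13 higher, and their genotype differences from -0.12 for Cdc25b to 0.15 for Plk1, with 7 of 13 higher. All 13 intervals lay within 1 log2 unit of 0 in both comparisons, and the medians were -0.016 and 0.012. With the mean of all probe sets, Aurka moved to -0.76, Bub1 to -0.24 and Top2a to 0.35 for genotype.

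The phosphatases Cdc25b and Cdc25c and the kinase Plk1 drive entry into mitosis. The values of Cdc25b were 8.34 and 8.69 in J1 cells with LIF and 8.66 and 8.63 without, against 8.61 and 8.32 in knockout-labelled cells with LIF and 8.66 and 8.24 without. For Cdc25c the J1 arrays gave 8.85 and 9.09 with LIF and 8.98 and 9.08 without LIF, and the knockout-labelled arrays 8.94 and 8.80 and 9.26 and 8.83 in the same order. In J1 cells Plk1 read 11.41 and 11.41 with LIF and 11.41 and 11.25 without it, and in the knockout-labelled cells 11.39 and 11.56 with LIF and 11.41 and 11.70 without it. In each of these the genotypes overlapped, and the largest genotype difference was that of Plk1, at 0.15 (SE 0.16).

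Aurka acts at the spindle poles and Aurkb at the centromere. Aurka read 11.77 and 12.11 in J1 cells with LIF, 11.70 and 11.82 in J1 cells without LIF, 11.81 and 12.01 in knockout-labelled cells with LIF and 11.64 and 11.91 in those without LIF. The values of Aurkb were 10.95 and 10.64 in J1 cells with LIF and 10.79 and 10.76 without, against 10.96 and 10.67 in knockout-labelled cells with LIF and 11.04 and 10.93 without. Aurka was higher on the second array in all 4 groups and Aurkb lower, and their genotype differences were -0.0046 (SE 0.18) and 0.12 (SE 0.17). A dim second probe set of Aurka, at a mean of 3.92, gave -1.52 (SE 0.28) with no overlap between the genotypes.

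Bub1 is a kinase of the spindle checkpoint, and Mki67 is the usual marker of cycling cells. For Bub1 the J1 arrays gave 11.58 and 11.58 with LIF and 11.53 and 11.70 without LIF, and the knockout-labelled arrays 11.62 and 11.50 and 11.85 and 11.63 in the same order. In J1 cells Mki67 read 10.78 and 11.39 with LIF and 11.09 and 11.24 without it, and in the knockout-labelled cells 11.35 and 11.08 with LIF and 11.34 and 11.17 without it. The lowest and highest Mki67 values were the 2 J1 arrays with LIF, and its genotype difference of 0.11 (SE 0.21) was -0.04 without the first of them and 0.26 without the second. Ccna2, Ccnb2, Cdk1, Cdc20, Mad2l1 and Top2a had genotype differences between -0.04 and 0.07.

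Whether LIF removal acted differently in the 2 lines was tested as an interaction. No member was called by limma (0% of all probe sets), and 0 of 47 had an unadjusted p under 0.05, against 3.55% of all probe sets. The values ran from -0.39 for Cdk6 to 0.60 for Rbl2, with 25 above 0. For 21 of 47 the interval lay within 1 log2 unit of 0, so for the others an interaction of 2-fold or more lies within the interval.

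The first and second arrays of a group differed by more than the groups did for most members, though not for Ccnd2. For 29 of 47 members the mean second-minus-first difference was larger in size than both averaged differences. It was above 0 in all 4 groups for 15 members and below 0 in all 4 for 4 members: Ccnd1, Ccnd3, Cdkn1b and Aurkb. These counts were not made over all genes. Replication genes had a median of 0.15, with 13 of 14 higher on the second array, whereas mitotic genes had 0.08 with 7 of 13 higher and the G1 genes -0.13 with 4 of 9. Over 17832 genes the median was 0.04, with 53.8% higher, and over the brighter probe sets 49.9% were higher.

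By array, the median deviation of the 14 replication genes from their own means was -0.18 and 0.21 in J1 cells with LIF and -0.11 and 0.09 without. In knockout-labelled cells it was -0.01 and 0.13 with LIF and -0.06 and -0.01 without. The lowest and the highest of these 8 values thus belong to the 2 arrays of 1 group. What the letter r stands for is not in the labels, so the source of a shift shared by the second arrays cannot be told. Such a shift was fitted only in alternative fits with a replicate block.

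**Figure D5:**
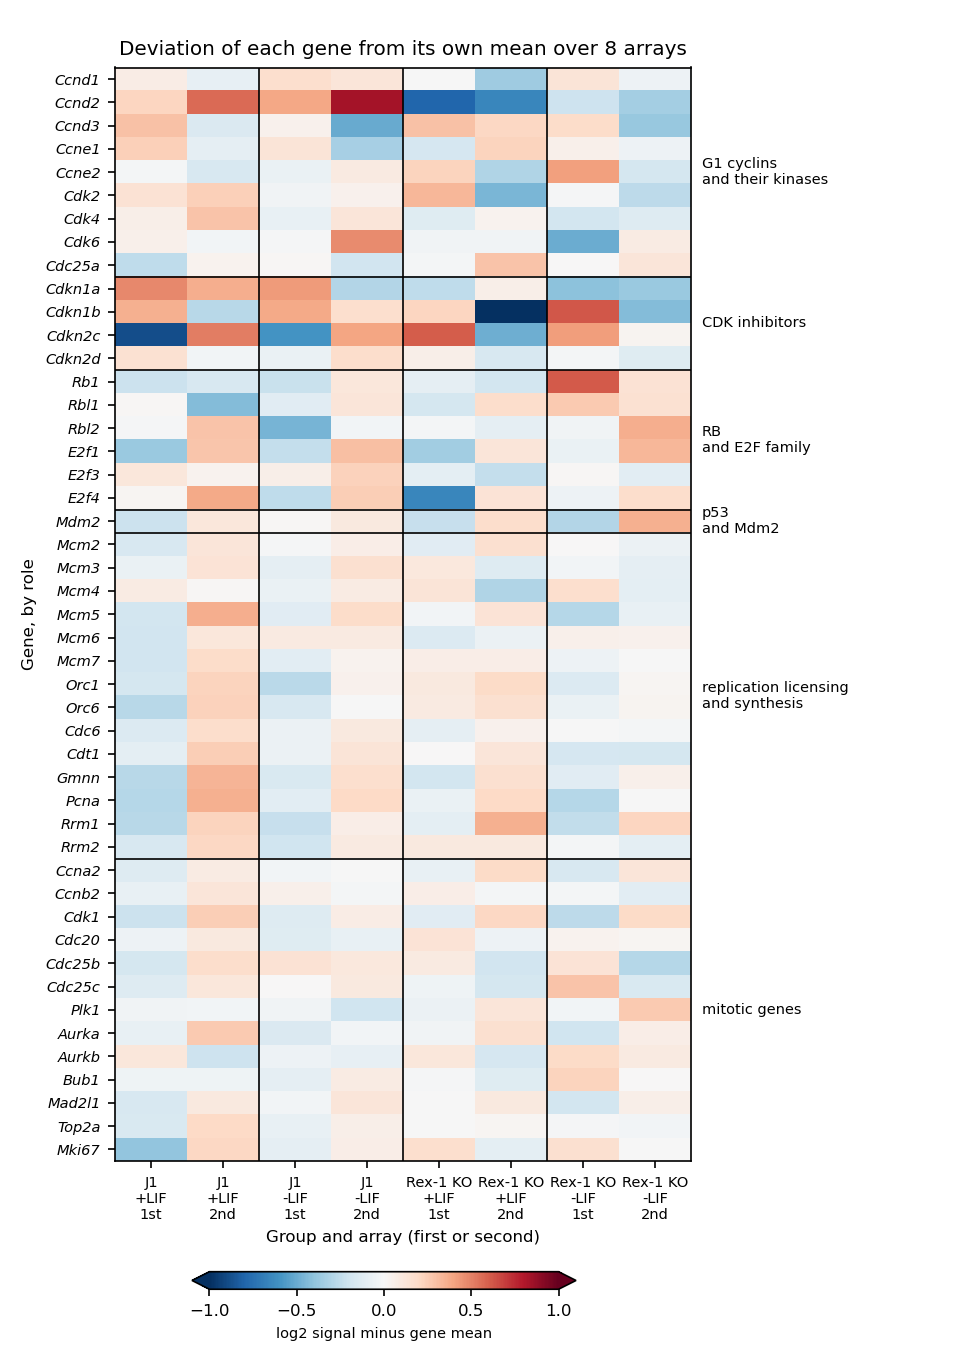
Deviation of each of the 47 genes (rows, by role) from its own mean over the 8 arrays (columns, first and second array of each group), in log2 units with red above and blue below; the scale ends at 1 unit. Ccnd2 is red in the 4 J1 columns and blue in the 4 knockout-labelled columns, and the replication genes differ mostly between the 2 J1 arrays with LIF, at medians of -0.18 and 0.21.

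Genes of the same pathways that are not members were read in the same fit. Of 19 other G1/S genes measured, 5 were higher and 14 lower in the knockout-labelled cells, with 0 called by limma and 2 at an unadjusted p under 0.05, both lower, where 5.27% of all probe sets were counted in either direction. These 2 were the inhibitors Cdkn1c (p57) and Cdkn2b (p15). Cdkn1c read 9.11 and 9.35 in J1 cells with LIF, 9.54 and 9.80 without, 7.88 and 8.58 in knockout-labelled cells with LIF and 8.68 and 8.87 without, with no overlap between genotypes. Its difference was -0.95 (SE 0.22, adjusted p = 0.801 in limma). Cdkn2b gave -1.86 (SE 0.69) at a low mean of 6.52. Without LIF, 14 of the 19 were higher and 5 lower.

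Of 40 other replication genes, 19 were higher and 21 lower in knockout-labelled cells, and 20 and 20 without LIF. Their genotype values ran from -0.32 (SE 0.15) for Pola2, a subunit of the primase complex, to 0.61 (SE 0.60) for Fen1, the flap endonuclease of Okazaki fragments, which read 14.28 on the second knockout-labelled array with LIF and 11.57 to 12.57 on the others. Of 39 other mitotic genes, 27 were higher and 12 lower in knockout-labelled cells, 2 of them higher at an unadjusted p under 0.05 (5.27% of all probe sets in either direction), and limma called 0 in either comparison. The 2 were Cep55, a protein of the last step of cell division, at 0.43 (SE 0.17), and Wee1, the kinase that holds Cdk1 inactive, at 0.43 (SE 0.16). The second probe set of Wee1 read lower in knockout-labelled cells, so its direction depends on the probe set.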

How the data were processed

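The authors deposited 1 linear intensity per Affymetrix probe set and array. GCRMA is named, without version, in the submitters' processing notes; the 2% trimmed mean of each deposited intensity column was 500.0, so the step that made the values is not known. Without detection values, how much of a low intensity is background cannot be told, and precision is limited by the number of arrays.

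The members and all gene lists were chosen with earlier results of these data known. Of 45101 probe sets, 64 controls were left out; 34945 carry 1 gene symbol in the platform annotation. Intensities were taken to log2 with no pseudocount, and 43439 probe sets with log2 of at least 4 on at least 2 arrays were kept. All 47 members passed. limma 3.58.1 in R 4.3.3 (lmFit, eBayes without trend) fitted 1 mean per group over 8 arrays, with Benjamini-Hochberg adjustment over all kept probe sets in each of 7 contrasts. Differences are on the log2 scale, and an SE or 95% interval is from this fit. The code was tested on simulated data. No level is compared between probe sets.

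Values on all 8 arrays are given for the 3 members of each role with the largest averaged LIF difference, the 3 with the largest averaged genotype difference and a few fixed names. Probe sets and other genes named beyond these were picked with their values in view.

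Whether the letter r pairs arrays was checked: second-minus-first differences correlated between groups at 0.0496 to 0.198 over all probe sets, with 2 of 6 pairs of groups under 0.1, so the letter was not used as a pairing. Over the 47 members the same correlations were -0.048 to 0.72, with 1 of 6 under 0.1. Alternatives covered the filter, normalization, variance prior, arrays fitted, probe set per gene, threshold, a replicate block, promoter window and each array left out. Figures used matplotlib 3.10.9 in Python 3.11.15.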

Additional observations from a re-analysis of the deposited data

How the results depend on the processing

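Members called numbered 0 under all 130 combinations of contrast and alternative. Over all probe sets the planned fit called 0 in every contrast; a trended and robust variance prior called 1 for genotype averaged. With the replicate block alone 0 probe sets were called in any contrast, and Ccnd2 had an adjusted p of 0.578 in limma. The block together with a mean log2 floor, chosen after seeing the data, called with a floor of 8 3 probe sets for knockout against J1 with LIF, 4 without LIF and 23 averaged, and with a floor of 10 2, 4 and 38, and 6 for LIF averaged. No member was among them; the smallest adjusted p was 0.0515, for Ccnd2. Leaving out single arrays moved the median of the members from -0.11 to 0.12 for LIF in J1 cells, from -0.12 to 0.095 for knockout against J1 with LIF and from -0.14 to 0.12 for the interaction, the extremes coming from the first and the second J1 array with LIF. The other 124 medians over all members stayed within the spread between arrays. Of single-gene differences 20 moved by more than that and 1634 did not; with the mean of all probe sets of a gene, Aurka was -0.76 and Cdc25a -0.41 for genotype, and Cdk2 -1.21 and Rb1 0.97 for LIF. The sign held under every alternative for 13 of 47 members in the genotype comparison and 17 of 47 in the LIF comparison. With the floor at a mean log2 of 8 and no block, limma still called 0 in every contrast.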

Other observations

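Targets of p53 were read beside Mdm2 and Cdkn1a. Of 21 measured, 12 were higher and 9 lower in the knockout-labelled cells, and 12 and 9 without LIF, with 0 called by limma. Only 1, Tnfrsf10b, was below an unadjusted p of 0.05, lower without LIF at -0.72 (SE 0.26). In that comparison 4.02% of all probe sets were counted in either direction. The largest averaged LIF difference of these targets was that of Fas, at -1.67, which was not below that p. Pmaip1, which encodes the cell death protein Noxa, read 9.12 and 8.58 in J1 cells with LIF, 9.52 and 9.65 without, 9.22 and 9.92 in knockout-labelled cells with LIF and 9.80 and 10.45 without. The averaged differences of Pmaip1 were 0.65 (SE 0.27) for LIF removal and 0.63 (SE 0.27) for genotype, with overlap between the genotypes. Cdkn1a, by contrast, had values of -0.33 (SE 0.22) and -0.49 (SE 0.22), so these 2 targets read in opposite directions, a difference that was not tested. In the list of other G1/S genes, Tfdp2, a dimerisation partner of E2F factors, had 0.37 (SE 0.17) and the repressor E2f7 0.34 (SE 0.18) without LIF.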
